A study of Homo sapiens with 32 samples.

Results

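The transcripts described here are NEAT1 and MALAT1, a pair of long noncoding RNAs encoded next to each other on chromosome 11. Peaks of N6-methyladenosine (m6A) were taken for each from 3 peak lists of PANC-1 cells, an established human pancreatic ductal adenocarcinoma line, if a line of a list overlapped its span in hg19. The span of NEAT1 was 65190245 to 65213011 (22767 bp), and the span of MALAT1 was 65265233 to 65273940 (8708 bp). Of the 424904 lines of the 3 lists, 31 met this rule, 20 on NEAT1 and 11 on MALAT1. The rule used positions only, so the numbers, widths and strengths of the peaks were not set by it.

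The lists stand for CFL1 knockout, METTL3 knockout and control PANC-1 cells, and 12 of the 32 samples in the labels lie behind them, with 2 antibody samples and 2 inputs in each group. In all of them total RNA was fragmented and pulled down with an anti-m6A antibody, and part of the fragments was set aside as input. CFL1 is cofilin 1, which severs actin filaments, and METTL3 is the enzyme that writes m6A within its methyltransferase complex. The names of the peaks give 2 libraries per list, called here CFL1 knockout 3 and 5, METTL3 knockout 3 and 5, and control 1 and 2. The numbers of the knockout libraries differ from the labels' replicate numbers, and their names carry the letters si, although the labels call both groups knockouts. The labels do not say whether a knockout is 1 clone or a pool, nor whether libraries of 1 group are separate cultures. Their spread may therefore be technical. The other 20 samples, of nuclear RNA or of cytochalasin D treatment with its untreated cells, were not analysed here.

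NEAT1 is the scaffold RNA of paraspeckles. It is made as a short and a long isoform that share their start, and only the long one builds the paraspeckle. MALAT1 is a very abundant RNA of nuclear speckles, the compartments that hold splicing factors, and its 3′ end is formed by cleavage that releases a small tRNA-like RNA. Both stay in the nucleus, and MALAT1 is known to carry m6A, which is placed on adenosines of a short sequence motif and can open RNA hairpins to proteins that bind them. A peak list gives where antibody-bound fragments stood out from the background of the calls. It gives no RNA level, so a change in methylation and a change in the amount of RNA cannot be told apart here.

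NEAT1 was called in every library, with 3 peaks in each of the 4 knockout libraries, 3 in control 1 and 5 in control 2. MALAT1 had 1 peak in each CFL1 knockout library, 2 and 3 peaks in METTL3 knockout 3 and 5, and 1 and 3 peaks in control 1 and 2. No pair of groups was separated by the number of NEAT1 peaks. For MALAT1 both CFL1 knockout libraries held fewer peaks than both METTL3 knockout libraries, which was so in 8.02% of windows of the length of MALAT1 that held a peak. Within each transcript the numbers in the peak names ran without a gap in every library, so no missing number fell between peaks of the same transcript. Between the last NEAT1 and the first MALAT1 peak numbers were missing in some libraries. In CFL1 knockout 3 they ran from 23691 to 23700, with 6 peaks listed between the transcripts. That stretch includes NEAT1 beyond its last listed peak, so whether a call was dropped there is unknown.

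**Figure D1:**
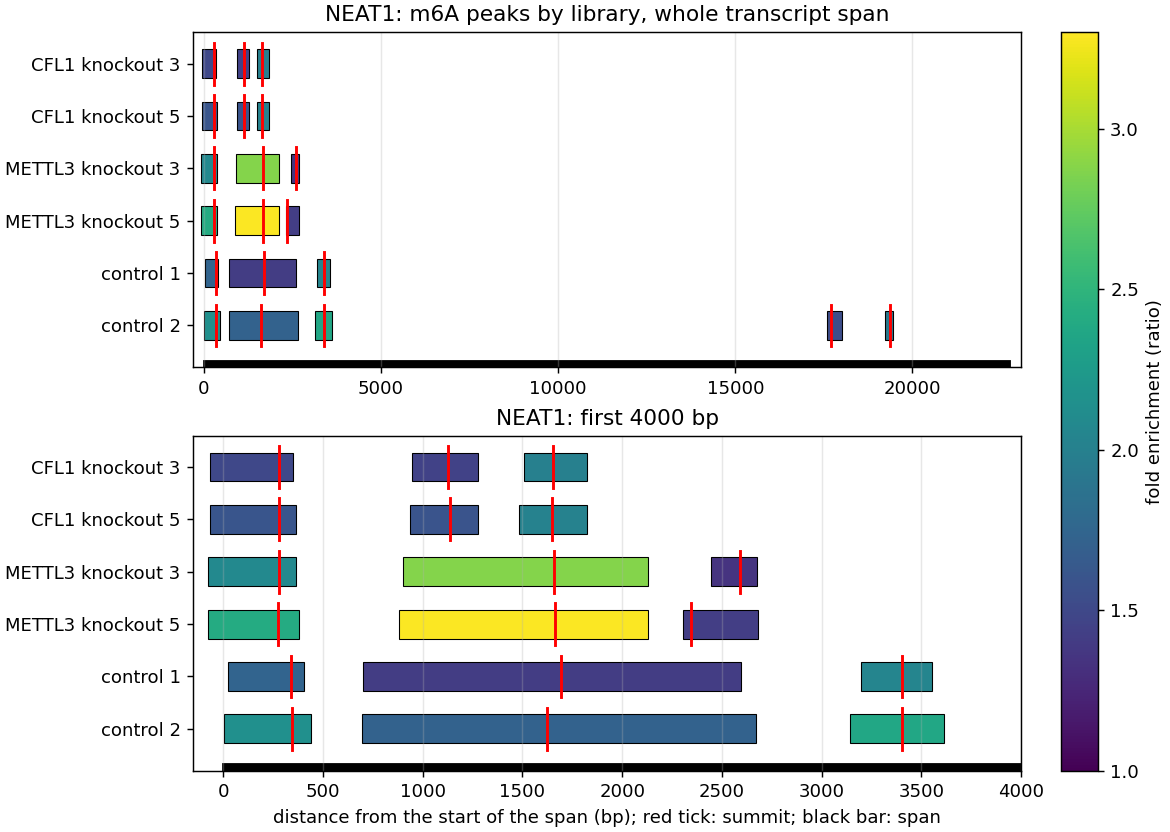
Peaks along NEAT1 in each library, over the whole span (top) and its first 4000 bp (bottom). The horizontal axis is the distance from the start of the span in bp, boxes are peaks coloured by fold enrichment, and red ticks are summits. All knockout peaks ended within 2679 bp of the start, while both control libraries held a further peak with its summit at 3402 bp, and control 2 had 2 peaks beyond 17597 bp.

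The first NEAT1 peak lay on its 5′ end and was called in all 6 libraries. It ran from 65190179 to 65190596 in CFL1 knockout 3 and from 65190181 to 65190607 in CFL1 knockout 5, from 65190170 to 65190609 and to 65190624 in METTL3 knockout 3 and 5, and from 65190270 to 65190651 and 65190249 to 65190685 in control 1 and 2. The 4 knockout peaks thus began 64 to 75 bp before the start of the span, and the control peaks 25 and 4 bp after it. The summit lay 279 and 280 bp from the start in the CFL1 knockout, 280 and 275 bp in the METTL3 knockout, and 342 and 345 bp in control. The knockout summits stood 62 bp or more upstream of both control summits. Such a split was common, as both CFL1 knockout summits lay on one side of both control summits at 72.1% of the 14796 sites with 1 peak in each of the 4 libraries, and the METTL3 knockout summits at 72.2% of 16200 sites. A gap of at least 62 bp was found at 40.8% of these sites for the CFL1 knockout and at 39.6% for the METTL3 knockout. The summits of both knockouts overlapped each other at NEAT1. Its fold enrichment, the authors' ratio of the peak over the background of the call, was 1.50 and 1.61 in CFL1 knockout 3 and 5, 2.08 and 2.40 in METTL3 knockout 3 and 5, and 1.73 and 2.14 in control 1 and 2. The CFL1 knockout values lay below both control values, and the METTL3 knockout values overlapped them. The share of sites with such an order of fold was not computed.

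The second NEAT1 summit called in all 6 libraries lay 1622 to 1695 bp from the start. Around it the peaks differed in width. In the CFL1 knockout a peak of 315 bp (library 3) and of 340 bp (library 5) held the summit, and a separate peak of 334 and 339 bp with a summit at 1129 and 1137 bp lay upstream. In the METTL3 knockout a peak of 1230 bp (library 3) and of 1251 bp (library 5) covered both positions. In control a peak of 1896 bp (control 1) and of 1972 bp (control 2) did so, wider than 98.7% of the peaks of its library in each case. The CFL1 knockout peaks near 1129 bp had no counterpart summit within 100 bp in any other library. The fold enrichment at this second summit of all 6 libraries was 1.99 and 2.01 in the CFL1 knockout, 2.88 and 3.28 in METTL3 knockout cells, and 1.41 and 1.71 in control. Both knockouts lay above both control libraries there, although the control peaks were the widest. How often shared sites show such an order of fold was not computed. The METTL3 knockout libraries held a further small peak downstream, with summits at 2592 bp (library 3) and 2345 bp (library 5) and a fold of 1.34 and 1.42.

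The NEAT1 peak with the highest fold enrichment in control was called in neither knockout. It ran from 65193445 to 65193800 in control 1 and from 65193389 to 65193859 in control 2, with the summit 3402 bp from the start in both. Its fold was 2.05 in control 1 and 2.37 in control 2, and its −log10 q, the strength of the call after correction for multiple testing, was 46.1 and 85.8. None of the 4 knockout libraries listed a peak that overlapped it. Over all control peaks called in both control libraries, 43.5% were absent from all 4 knockout libraries, so absence of this kind was frequent. Of the 6 NEAT1 control peaks called in both control libraries, 2 (this peak in each library) were absent from all 4.

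Far from the 5′ end, control 2 alone listed NEAT1 peaks. Their summits lay 17689 and 19360 bp from the start, toward the 3′ end of the span, which the long isoform reaches, with folds of 1.54 and 1.93. Control 1 and the 4 knockout libraries listed none there, and no library listed any between 3614 and 17597 bp. These 2 peaks rest on 1 library.

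NEAT1 was covered by peaks over a smaller share of its span in both knockouts than in control. The covered share was 4.40% and 4.58% in CFL1 knockout 3 and 5, 8.03% and 8.81% in METTL3 knockout 3 and 5, and 11.6% and 15.5% in control 1 and 2. The libraries of the 3 groups did not overlap, with the CFL1 knockout lowest and control highest. Means were 4.49% ± 0.127 in the CFL1 knockout, 8.42% ± 0.553 in METTL3 knockout cells and 13.5% ± 2.75 in control (SD, n = 2 each). The CFL1 knockout differed from control by -9.03 percentage points, the METTL3 knockout from control by -5.10, and the CFL1 knockout from the METTL3 knockout by -3.93. An exact permutation of 2 against 2 libraries gave p = 0.333 (two-sided) for each, the smallest it can give, so none could pass a threshold of 5%. Over 30 such comparisons of NEAT1 and MALAT1 the smallest adjusted p was 0.50 (Benjamini-Hochberg). Among windows of the length of NEAT1 with a peak, both libraries were below both control libraries in 31.2% for the CFL1 knockout and also in 31.2% for the METTL3 knockout, and both CFL1 knockout libraries were below both METTL3 knockout libraries in 20.9%. All 3 orders together, as at NEAT1, were found in 4.42% of 50486 windows. Both knockout comparisons use the same control libraries, and without control 2 the METTL3 knockout difference was -3.15 percentage points.

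The highest fold on NEAT1 lay on opposite sides of control in CFL1 and METTL3 knockout cells, but it belonged to different peaks, the one at 1650 to 1661 bp in all 4 knockout libraries and the one at 3402 bp in control. All 6 libraries shared 2 summits, both given above. At the one 1622 to 1695 bp from the start both knockouts lay above control, so the direction of the CFL1 knockout turned there. At the one 275 to 345 bp from the start the CFL1 knockout lay below both control libraries, and the METTL3 knockout overlapped control. The highest fold enrichment per library was 1.99 and 2.01 in CFL1 knockout 3 and 5, 2.88 and 3.28 in METTL3 knockout 3 and 5, and 2.05 and 2.37 in control 1 and 2. Both CFL1 knockout libraries lay below both control libraries and both METTL3 knockout libraries above them. The means were 2.0003 ± 0.0114 in the CFL1 knockout, 3.08 ± 0.286 in METTL3 knockout cells and 2.21 ± 0.228 in control (SD, n = 2 each). The difference from control was -0.21 in the CFL1 knockout and 0.87 in METTL3 knockout cells, and -1.08 between the CFL1 and the METTL3 knockout (exact permutation p = 0.333 for each, two-sided). Without control 2 the CFL1 knockout difference from control was -0.046 and without control 1 -0.37, so its size depends on the control library. Among windows with a peak in all 4 libraries compared, 25.1% were lower in the CFL1 knockout in this way and 40.6% were higher in the METTL3 knockout, while both CFL1 knockout libraries were below both METTL3 knockout libraries in 29.3%. The share of windows with the opposite orders against control at once was not computed. The highest −log10 q on NEAT1 was 60.2 and 66.6 in the CFL1 knockout, 136.8 and 153 in METTL3 knockout cells, and 46.1 and 85.8 in control. The METTL3 knockout was above control in both libraries, as in 41.6% of windows, and above the CFL1 knockout, as in 34.8%. The median −log10 q over all peaks of a library was also higher in the knockouts than in control. It was 9.45 and 10.9 in CFL1 knockout 3 and 5, 11.3 and 10.2 in METTL3 knockout 3 and 5, and 7.66 and 7.52 in control 1 and 2. On NEAT1 the highest −log10 q of the CFL1 knockout overlapped control.

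**Figure D2:**
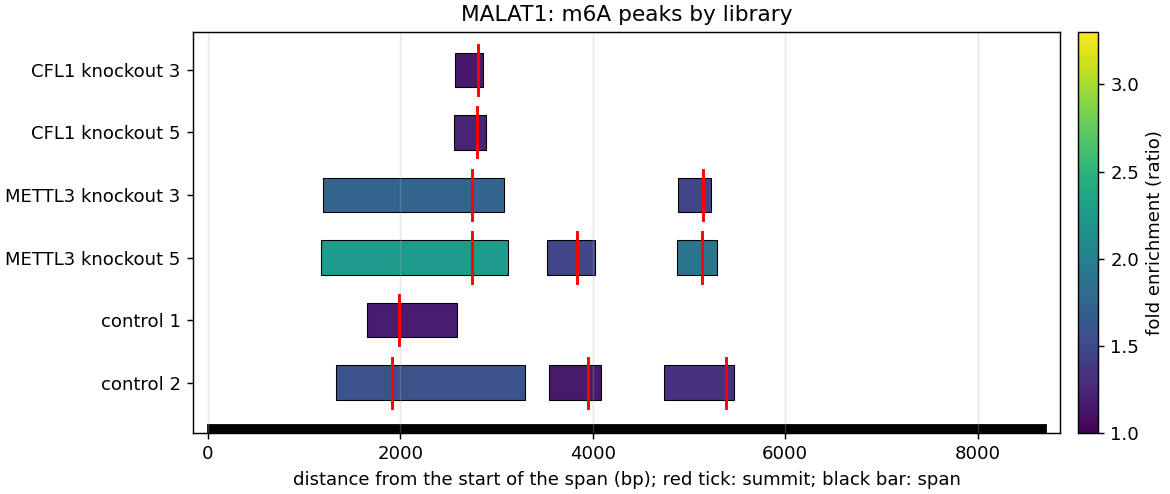
Peaks along MALAT1 in each library. The horizontal axis is the distance from the start of the span in bp, boxes are peaks coloured by fold enrichment, and red ticks are summits. Peaks lay between 1178 and 5470 bp, the CFL1 knockout libraries had 1 narrow peak each, and the summits of the leading peak stood at 2750 to 2811 bp in the knockouts against 1914 and 1992 bp in control.

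On MALAT1 no library had a peak in the first 1178 bp of the span or beyond 5470 bp, so its 3′ end was without a peak in all 6. RefSeq lists MALAT1 with 2 start windows, each running from 250 bases before to 50 after a transcript start. They are shown as the sequence at hand for the starts of MALAT1, and whether a peak covers either window was not determined. Capitals mark GGACT, a frequent form of the m6A motif, and its reverse complement AGTCC. The windows are on the plus strand of GRCh38.p14, another build than the peaks, and were not placed on hg19.

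MALAT1 start window 1 (chr11:65497488-65497787): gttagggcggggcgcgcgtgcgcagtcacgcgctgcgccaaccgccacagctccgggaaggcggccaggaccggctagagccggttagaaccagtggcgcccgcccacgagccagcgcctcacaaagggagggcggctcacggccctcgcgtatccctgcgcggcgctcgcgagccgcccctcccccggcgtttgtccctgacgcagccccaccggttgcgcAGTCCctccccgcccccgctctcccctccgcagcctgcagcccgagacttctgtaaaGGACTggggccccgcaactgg
MALAT1 start window 2 (chr11:65498795-65499094): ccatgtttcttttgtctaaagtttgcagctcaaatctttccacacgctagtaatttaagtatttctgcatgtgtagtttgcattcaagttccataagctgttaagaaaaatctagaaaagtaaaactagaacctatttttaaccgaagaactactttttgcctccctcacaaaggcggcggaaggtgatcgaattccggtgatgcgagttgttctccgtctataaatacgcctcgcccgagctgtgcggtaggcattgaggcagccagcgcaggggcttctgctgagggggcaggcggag

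Start window 1 held GGACT once on the strand of the gene, 30 bases after the start and thus in the transcribed part, and AGTCC once before the start. Start window 2 held neither. Of the 35116 start windows of the RefSeq table, 44.2% held GGACT on either strand, and 4.90% held it on the gene's strand within the 50 bases after the start.

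The leading MALAT1 peak was narrower in the CFL1 knockout than in the other groups, and its summit lay elsewhere in both knockouts than in control. The METTL3 knockout widths fell between those of control 1 and 2. How often sites show such an order of width was not computed. In the CFL1 knockout it was narrow, from 65267806 to 65268097 (292 bp) in library 3 and from 65267796 to 65268123 (328 bp) in library 5. In the METTL3 knockout it ran from 65266429 to 65268310 (1882 bp) in library 3 and from 65266411 to 65268353 (1943 bp) in library 5. In control it ran from 65266884 to 65267827 (944 bp) in control 1 and from 65266564 to 65268530 (1967 bp) in control 2. The summit lay 2811 and 2798 bp from the start in CFL1 knockout 3 and 5, at 2750 bp in both METTL3 knockout libraries, and at 1992 and 1914 bp in control 1 and 2. All 4 knockout summits therefore lay downstream of both control summits, by at least 806 bp in the CFL1 knockout and 758 bp in the METTL3 knockout. A gap as large was found at 0.933% of the 14796 sites compared for the CFL1 knockout and at 1.20% of the 16200 for the METTL3 knockout. Wide sites leave more room for it, and among sites at least as wide as this one the shares were 18.2% of 411 and 23.8% of 319. The CFL1 knockout summits stood 48 bp or more beyond the METTL3 knockout summits, and the summits of the knockouts were split in this way, in either direction, at 41.7% of the 21353 sites compared.

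Further downstream, METTL3 knockout 5 and control 2 each had a MALAT1 peak with a summit at 3840 and 3948 bp. The METTL3 knockout libraries also shared a peak with summits at 5141 bp (library 3) and 5138 bp (library 5), with folds of 1.48 and 1.90. The control 2 peak over the same stretch had its summit at 5384 bp and a fold of 1.32. The CFL1 knockout libraries and control 1 listed no peak there. Joined within 100 bp, the summits formed 6 groups on MALAT1, none of them present in all 6 libraries, and 8 on NEAT1, of which 2 were present in all 6.

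The covered share of MALAT1 was lowest in the CFL1 knockout and varied widely in control. It was 3.35% and 3.77% in CFL1 knockout 3 and 5, 25.5% and 32.9% in METTL3 knockout 3 and 5, and 10.8% and 37.2% in control 1 and 2. Both CFL1 knockout libraries lay below the other 4, while the METTL3 knockout libraries fell between the 2 control libraries. The means were 3.56% ± 0.292 in the CFL1 knockout, 29.2% ± 5.27 in METTL3 knockout cells and 24.0% ± 18.6 in control (SD, n = 2 each). The CFL1 knockout differed by -20.4 percentage points from control and by -25.6 from the METTL3 knockout (exact permutation p = 0.333 for both, two-sided). The METTL3 knockout differed from control by 5.19 points (exact permutation p = 1), and without control 1 the difference turned to -7.98. Without control 2 the CFL1 knockout minus control was -7.28 points and the METTL3 knockout minus control 18.4, and without control 1 the CFL1 knockout minus control was -33.6. The METTL3 knockout minus control was 8.92 points without METTL3 knockout 3 and 1.46 without METTL3 knockout 5. Counting only peaks with a −log10 q of 5 or more, which leaves CFL1 knockout 3 and control 1 with no MALAT1 peak, gave -13.6 points for the CFL1 knockout minus control and 13.7 for the METTL3 knockout minus control. The CFL1 knockout and control libraries then overlapped (exact permutation p = 1, two-sided). Both CFL1 knockout libraries were below both control libraries in 29.5% of windows of the length of MALAT1, and below both METTL3 knockout libraries in 19.3%.

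The strength of the MALAT1 peaks was highest in the METTL3 knockout. The highest fold enrichment was 1.15 and 1.23 in CFL1 knockout 3 and 5, 1.73 and 2.26 in METTL3 knockout 3 and 5, and 1.18 and 1.58 in control 1 and 2. The METTL3 knockout libraries were above both control libraries, with a difference of 0.61 (exact permutation p = 0.333, two-sided), as was so in 40.9% of windows. Without METTL3 knockout 5 the difference was 0.35. Divided by the median fold of the library, which was higher in all 4 knockout libraries than in control, the METTL3 knockout values of 0.371 and 0.474 overlapped the control values of 0.285 and 0.402. The CFL1 knockout libraries overlapped control, with a difference of -0.19 (exact permutation p = 0.667, two-sided) that was 0.0062 without control 2 and -0.39 without control 1. Divided by the median fold of the library, the CFL1 knockout values of 0.248 and 0.260 lay below both control values (exact permutation p = 0.333, two-sided), so on that scale the libraries of these groups did not overlap. That scale was added after seeing the data, and the higher medians of the knockout libraries lower every knockout value on it. The share of windows with this order on that scale was not computed. The highest −log10 q was 3.77 and 11.1 in the CFL1 knockout, 85.1 and 167 in METTL3 knockout cells, and 4.13 and 40.0 in control. The METTL3 knockout again lay above both control libraries, as in 41.6% of windows. As given for NEAT1, the median −log10 q over all peaks was also higher in the knockout libraries than in control. Both CFL1 knockout libraries were below both METTL3 knockout libraries in fold and in −log10 q, which held in 30.8% and 34.3% of windows.

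**Figure D3:**
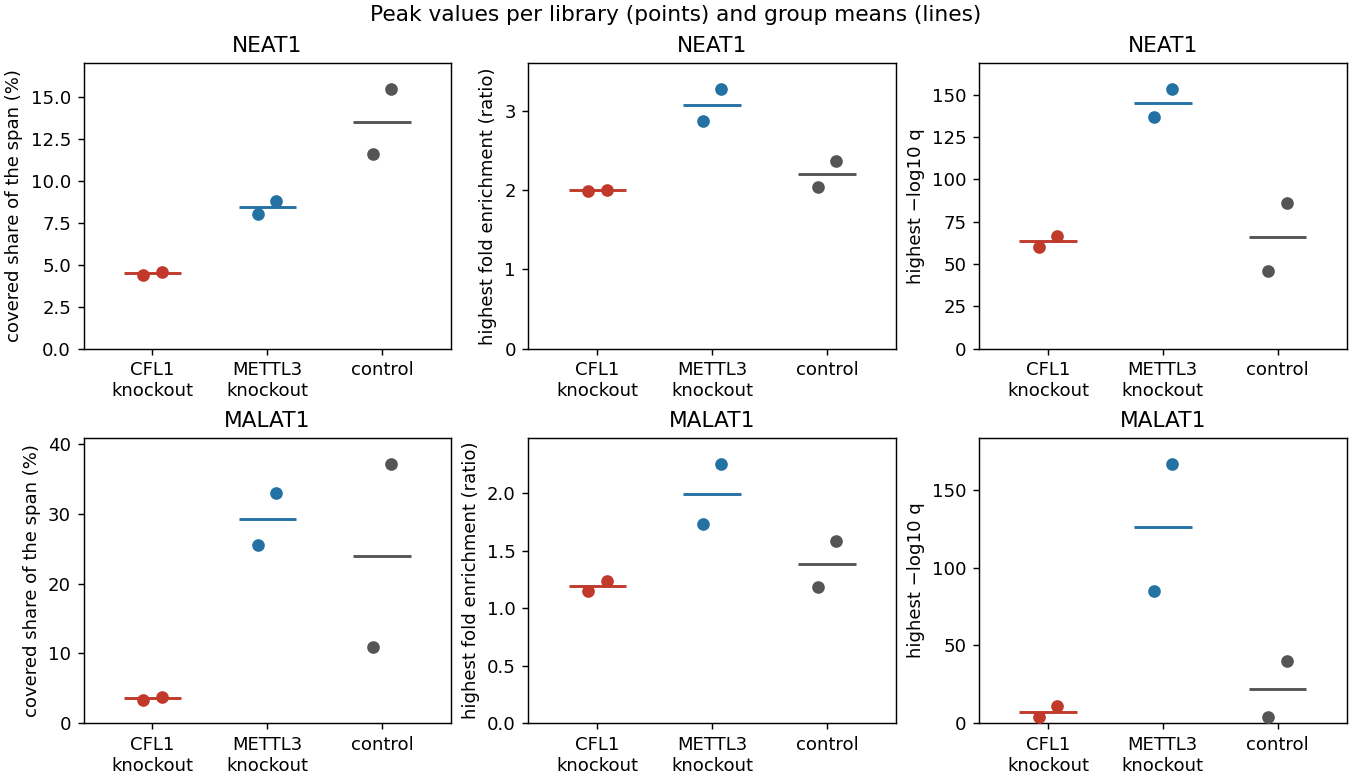
Covered share, highest fold enrichment and highest −log10 q of NEAT1 (top) and MALAT1 (bottom). Points are libraries and lines are means of 2 libraries. The CFL1 knockout had the lowest covered share of both transcripts, at most 4.58% on NEAT1 and 3.77% on MALAT1, and the METTL3 knockout the highest fold and −log10 q of both.

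Every knockout peak on NEAT1 and MALAT1 overlapped a control peak by at least 1 bp. Of the CFL1 knockout peaks 0 of 8 had no overlapping control peak, and of the METTL3 knockout peaks 0 of 11. The exact 95% intervals allow shares of up to 36.9% and 28.5%. The METTL3 knockout count rests on control 2, since 3 of the 11, the MALAT1 peaks with summits at 3840, 5141 and 5138 bp, had no overlapping peak in control 1. Over all peaks, 53.2% of the CFL1 knockout peaks and 49.3% of the METTL3 knockout peaks were absent from control. These shares were not matched for width, and a wide peak is easier to overlap. Control peaks on the transcripts were 216 to 1972 bp wide, against medians of 332 and 341 bp over all peaks of control 1 and 2. The limits cover counting error only, and peaks of 2 libraries at 1 place are not independent. In the other direction, 6 of 12 control peaks (50%, exact 95% interval 21.1% to 78.9%) had no CFL1 knockout peak, against 57.8% of all control peaks. These were 4 of 8 on NEAT1 and 2 of 4 on MALAT1. In the METTL3 knockout 4 of 12 were absent (33.3%, 9.92% to 65.1%), against 57.7% of all control peaks, and all 4 of them lay on NEAT1. All 4 MALAT1 control peaks were overlapped by a METTL3 knockout peak. With presence set by the control summit lying inside a knockout peak, the share of these 4 MALAT1 control peaks absent was 100% for the CFL1 knockout and 25% for METTL3 knockout cells. With an overlap of at least 50% of the shorter peak required, it was 75% for the CFL1 knockout and 0% for METTL3 knockout cells. The share of all control peaks absent under either rule was not computed, so these values have no background.

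The peaks of both transcripts shared a property that the rule did not use, a low fold enrichment with a high −log10 q. Their folds ran from 1.15 to 3.28 with a median of 1.61, while the median over all peaks of a library ran from 3.93 to 4.75. Of the 31 peaks 28 lay under the 5th percentile of fold of their own library, all 11 on MALAT1 and 17 of 20 on NEAT1. The MALAT1 peak of CFL1 knockout 3 had the lowest fold of all 72728 peaks of that library. Yet 26 of the 31 had a −log10 q above the median of their library, and 23 had both properties, against 1.6% of all 424904 peaks. The 3 NEAT1 peaks above the 5th percentile were the METTL3 knockout peaks around 1656 bp and 1661 bp (percentiles 12.6 and 16.6) and the control 2 peak at 3402 bp (6.75). No peak of NEAT1 or MALAT1 reached a fold of 4.

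**Figure D4:**
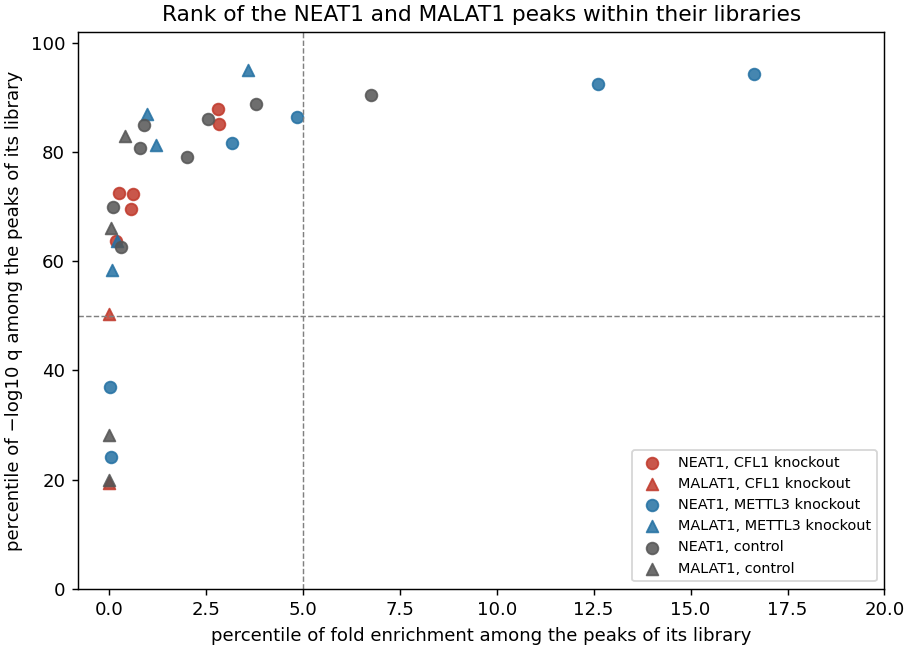
Rank of each of the 31 peaks within its library, with the percentile of fold enrichment across (axis ending at 20) and of −log10 q upwards. Circles are NEAT1 and triangles MALAT1, coloured by group, and dashed lines mark the 5th percentile of fold and the median −log10 q. The points crowd the upper left, with fold percentiles of at most 16.6 and 26 of the 31 above the median −log10 q.

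The 52221 bp between NEAT1 and MALAT1, where no peak belongs to either, had peaks of higher fold. It held 6 and 7 peaks in CFL1 knockout 3 and 5, 6 and 10 in METTL3 knockout 3 and 5, and 14 and 19 in control 1 and 2, and its folds ran from 2.50 to 17.5, against 1.15 to 3.28 on the transcripts. Peaks covered 7.02% and 6.78% of it in CFL1 knockout 3 and 5, 7.08% and 7.59% in METTL3 knockout 3 and 5, and 18.5% and 20.6% in control 1 and 2. Both knockouts thus lay below both control libraries there, as on NEAT1. How often windows of this length show that order was not computed. At the length of NEAT1 it was found in 31.2% of windows for each knockout. Among windows of the same length that held a peak in the library ranked, NEAT1 was covered more than 66.8% and 67.8% in CFL1 knockout 3 and 5, 82.5% and 85.8% in METTL3 knockout 3 and 5, and 87.8% and 93.9% in control 1 and 2. MALAT1 was covered more than 33.9% and 37.8% of such windows in CFL1 knockout 3 and 5, 94.0% and 97.4% in METTL3 knockout 3 and 5, and 70.3% and 98.3% in control 1 and 2.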

How the data were processed

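The submitters' processing notes name STAR, MACS2, bedtools and hg19, and the peak lists are read as MACS2 calls on that build. Their versions and settings, and what served as background of a call, are not given in the sources here. Per peak the authors deposited the interval, the summit, a fold enrichment (a ratio) and −log10 q, all their own values, used here to describe and rank peaks within a library and set side by side between libraries. Read depth is unknown. By their names, the peaks of a list come from 2 libraries called separately, and the numbers in the names skip values, by a criterion that is not stated. Samples were grouped by title. No column belonged to another sample.

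A peak belonged to a transcript if it overlapped its span by at least 1 bp. Covered share is the percentage of the span under a peak. Groups were summarised by the mean and SD of 2 libraries and compared by exact permutation. Shares over all peaks, over windows of the length of each transcript tiled on chromosomes 1 to 22 and X, and over sites with 1 peak in each of 4 libraries give the background. The overlap, cover and window functions were tested on simulated data. Tools were Python 3.11.15, pandas 2.3.3, numpy 2.4.6 and matplotlib 3.10.9. Start windows came from RefSeq (GRCh38.p14), where 1 of the 2 transcripts matched by symbol. The transcripts, measures and rules were chosen with earlier results of these data known. All summit groups are described, and no gene with a like pattern was named, because an hg19 annotation was not used here. The alternatives were thresholds on −log10 q and fold, other rules for assignment, overlap and merging, and leaving out each library. The scaling by the library's median fold, and leaving out libraries for knockout peaks absent from control, were added after seeing the data.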

Additional observations from a re-analysis of the deposited data

Results flagged for a closer look

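The highest fold enrichment of NEAT1 lay on opposite sides of control in CFL1 and METTL3 knockout cells, with both CFL1 knockout libraries (1.99 and 2.01) below and both METTL3 knockout libraries (2.88 and 3.28) above both control libraries (2.05 and 2.37). The mean of the CFL1 knockout minus that of the METTL3 knockout was -1.08, and an exact permutation of 2 against 2 libraries gave p = 0.333 (two-sided), the smallest it can give. Among windows of the length of NEAT1, 25.1% were lower in the CFL1 knockout and 40.6% higher in the METTL3 knockout in this way. Each order alone was thus frequent, and the share of windows with both at once was not computed. The strongest peak was the same one in both knockouts, with its summit 1650 to 1661 bp from the start of the span, and another one in control, with its summit at 3402 bp. All 6 libraries shared 2 summits. At the one 1622 to 1695 bp from the start, both control libraries (1.41 and 1.71) lay lowest. The CFL1 knockout libraries (1.99 and 2.01) and the METTL3 knockout libraries (2.88 and 3.28) lay above them, so the direction of the CFL1 knockout turned there. At the other, 275 to 345 bp from the start, it did not turn. The CFL1 knockout (1.50 and 1.61) lay below both control libraries (1.73 and 2.14), and the METTL3 knockout (2.08 and 2.40) overlapped control.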

How the results depend on the processing

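No paired analysis was possible because numbers in the knockout peak names differ from the replicate numbers given by the labels. At a fold of at least 4 no peak of either transcript was left, so that alternative gave no value, and with −log10 q restricted to 5 or more, or 10 or more, control 1 held no MALAT1 peak, so the highest fold of MALAT1 gave none. Among the 170 other values, 154 kept their direction or moved by less than the spread. Some of them could not differ. Every summit lay inside its span, and merging peaks within 100 bp left the covered shares and peak numbers as they were. For shares of absent peaks the spread was the SD of 2 libraries. It was wide for MALAT1 control peaks absent from the CFL1 knockout, with 0% and 66.7%. The count is therefore no measure of robustness. Leaving out each library in turn, the MALAT1 covered share differed from control by -33.6 to -7.28 points in the CFL1 knockout and by -7.98 to 18.4 in the METTL3 knockout. The corresponding NEAT1 ranges were -11.0 to -7.08 and -7.04 to -3.15. The CFL1 knockout minus the METTL3 knockout ran from -29.4 to -21.9 points on MALAT1 and from -4.32 to -3.54 on NEAT1. The number of MALAT1 peaks differed from control by -2 to 0 in the CFL1 knockout and by -0.50 to 1.5 in the METTL3 knockout, and the number of NEAT1 peaks by -2 to 0 in both. The highest MALAT1 fold differed by -0.39 to 0.0062 in the CFL1 knockout and by 0.35 to 0.87 in the METTL3 knockout, and that of NEAT1 by -0.37 to -0.046 and 0.67 to 1.07. The share of MALAT1 control peaks absent ran from 0% to 66.7% in the CFL1 knockout and from 0% to 25% in the METTL3 knockout, and that of NEAT1 control peaks from 33.3% to 60% in both. The share of knockout peaks absent from control stayed at 0% in the CFL1 knockout and ran from 0% to 27.3% in METTL3 knockout cells. With the control summit inside a knockout peak, the MALAT1 shares were 100% and 25%. Among windows covered by at least 10%, the share below control in both libraries was 37.2% for the CFL1 knockout and 41.5% for the METTL3 knockout at the length of NEAT1, and 41.0% and 40.2% at the length of MALAT1. The cause of these moves was not tested, except that leaving out a library lowers the number of libraries by construction. With 2 libraries a group no alternative could pass a test, and unknown read depth limits what an absent peak shows.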
